A study of Mus musculus with 20 samples.

Results

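Serine synthesis and folate one-carbon metabolism were followed through 10 genes of the 54532 in the deposited expression table. The rows were those whose Ensembl identifiers map to Phgdh, Psat1, Psph, Shmt1, Shmt2, Mthfd1, Mthfd2, Mthfd1l, Aldh1l2 and Asns. The genes were picked for how hepatocyte organoids differ from regenerating liver, so the organoid values below are a description and carry no test. Changes with time after hepatectomy were tested across all genes.

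Cells make serine from a glycolytic intermediate through the enzymes PHGDH, PSAT1 and PSPH. Serine hydroxymethyltransferases then pass a carbon unit from serine to folate, SHMT1 in the cytosol and SHMT2 in mitochondria, and enzymes of the MTHFD and ALDH1L families turn that unit into formate, into purine and thymidylate precursors, or into carbon dioxide. Adult liver is known for breaking down serine and glycine, and proliferating cells are known for high mitochondrial folate enzymes. Asparagine synthetase, ASNS, shares with PHGDH and PSAT1 the amino acid stress factor ATF4 as a known regulator.

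The series holds RNA sequencing of C57BL/6 mouse hepatocytes in 20 libraries. Hep-Org, organoids grown from isolated hepatocytes in Matrigel and collected after passaging, had 2 libraries. Hepatocytes isolated from liver after PHx, a partial hepatectomy removing 70% of the organ, had 2 libraries at each of 6, 12, 24, 48 and 72 h and 7, 14 and 21 d, and those from undamaged liver had 2. The labels name no drug or transgene and give neither animal age nor passage number. Whether replicates came from separate animals or cultures is not said, though the 2 Hep-Org libraries differ in sex-linked RNA as given below. The growth protocol of the PHx replicate 2 libraries does not mention Matrigel. They are treated below as a second submission, which the labels do not state. The p-values below speak of the spread between these libraries alone, and that spread may be technical.

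The values were FPKM, fragments per kilobase of transcript and per 1000000 fragments. From their smallest steps a depth of 13.7 to 41.4 M reads per library was recovered, with M for 1000000. The Hep-Org libraries went against the hepatocyte label in several markers. The summed level of 10 hepatocyte markers was 757 and 4086 FPKM in Hep-Org, 26434 to 84215 FPKM after PHx and 73938 to 84069 FPKM in undamaged liver, with Cyp2e1, Cps1, Tat and Hpd under 0.5 FPKM in both Hep-Org libraries. The hepatocyte regulator Hnf4a was at 43.5 and 37.9 FPKM in Hep-Org. The sum of 7 biliary markers, mostly Spp1, was 2734 and 4449 FPKM in Hep-Org against 8.01 to 72.5 FPKM after PHx and 12.7 and 337 FPKM in undamaged liver. All 7 endothelial, all 6 lymphocyte and all 5 erythroid markers were under 0.5 FPKM in both Hep-Org libraries. Xist RNA, which coats the silenced X, reached 13.6 to 25.3 FPKM in Hep-Org replicate 2 and in both libraries of 48 h, 72 h and 7 d, and below 0.2 FPKM in the other 13 libraries. Ddx3y, a gene of the Y chromosome, was 9.66 to 21.4 FPKM in those 13 libraries and at most 0.00756 FPKM in the other 7. The 2 Hep-Org libraries thus differ in these sex-linked marks, and so do the PHx times. The part of these differences in the results was not tested, and in bulk RNA fewer cells of a type and less RNA per cell cannot be told apart.

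**Figure D1:**
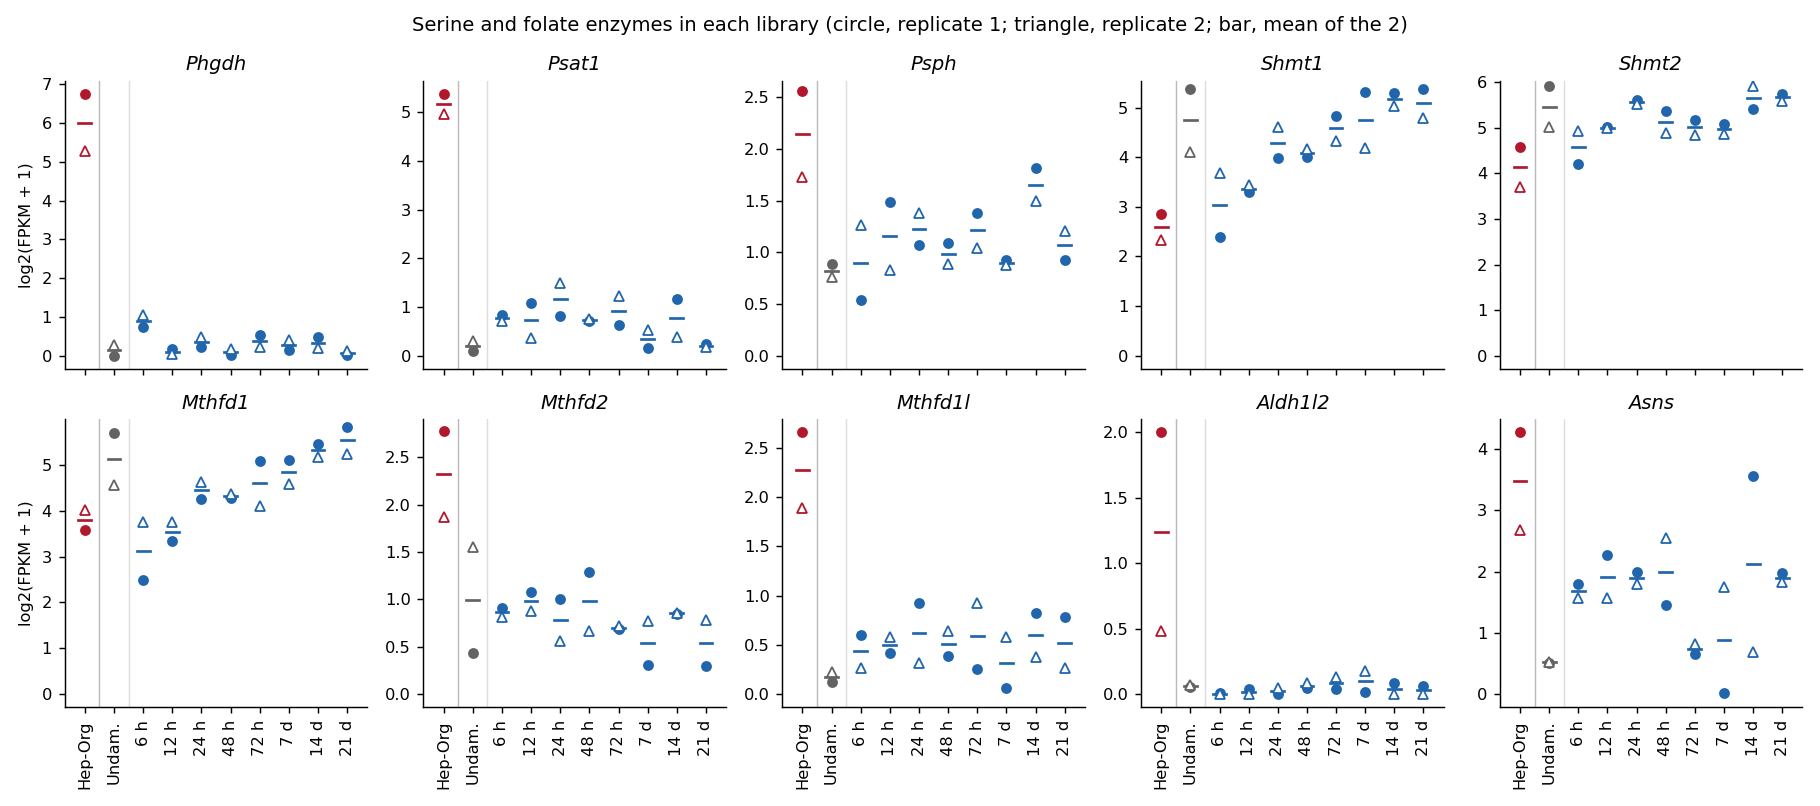
Level of each of the 10 genes as log2(FPKM + 1) in every library, with Hep-Org in red, undamaged liver in grey and PHx times in blue; circles are replicate 1, triangles replicate 2 and bars the mean of 2. Phgdh and Psat1 are at 30.0 to 106 FPKM in Hep-Org and at most 1.84 FPKM in liver, while Shmt1 and Mthfd1 are lowest among PHx times at 6 h.

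Phgdh and Psat1, the first enzymes of serine synthesis, showed the widest gap between organoids and liver among the 10 genes. Phgdh encodes the dehydrogenase that commits carbon to serine (ENSMUSG00000053398, GRCm38 chromosome 3, 98313170 to 98339990), and it stood at 106 and 37.7 FPKM in Hep-Org replicates 1 and 2. After PHx it was 0.681 and 1.07 FPKM at 6 h, 0.127 and 0.0386 FPKM at 12 h, 0.165 and 0.397 FPKM at 24 h, 0.0248 and 0.134 FPKM at 48 h, and 0.449 and 0.168 FPKM at 72 h. Phgdh was 0.118 and 0.325 FPKM at 7 d, 0.392 and 0.154 FPKM at 14 d and 0.0164 and 0.0849 FPKM at 21 d, and 0 and 0.222 FPKM in undamaged liver. Phgdh was thus near the bottom of the measurable range in every liver library, and the lower Hep-Org library was 35.3 times the highest liver library. The Phgdh values rest on 11497 and 4772 recovered reads in Hep-Org and on at most 71 in any liver library. The undamaged library without a Phgdh read allows up to 0.0589 FPKM at 3 reads, counting error only.

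The order of the Phgdh group means was Hep-Org at 71.8 ± 48.2 FPKM, 6 h at 0.874 ± 0.273 FPKM, 72 h at 0.309 ± 0.199 FPKM and then all other liver groups down to 21 d at 0.0506 ± 0.0484 FPKM (SD, n = 2 each). Hep-Org and 6 h are separated in this order by more than the spread of their libraries, and both 6 h libraries lay above every other liver library. From 72 h downwards each group overlapped its neighbour. No test over time is given for Phgdh, since it entered the tested genes only through its level in Hep-Org. Mthfd1l entered in the same way, and counts out of 9 genes below include both but say nothing of their course.

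Psat1 encodes the aminotransferase of the second step (ENSMUSG00000024640, chromosome 19, 15904678 to 15947337). It stood at 40.5 and 30.0 FPKM in Hep-Org, and these libraries differed by a factor of 1.35, against 2.81 for Phgdh. Over the 16 PHx libraries Psat1 had a lowest, median and highest level of 0.127, 0.639 and 1.84 FPKM, and it was 0.0688 and 0.238 FPKM in undamaged liver. No liver library came near the organoids, the lower of which was 16.3 times the highest liver library, a 24 h one. Within liver, 13 of 16 PHx libraries lay above both undamaged ones. The highest group mean after PHx was 1.30 ± 0.767 FPKM at 24 h and the lowest 0.157 ± 0.0351 FPKM at 21 d (SD, n = 2 each).

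Psph encodes the phosphatase that releases free serine (ENSMUSG00000029446, chromosome 5, 129765558 to 129787449), and its gap was small. It was 4.88 and 2.31 FPKM in Hep-Org, 0.451 to 2.52 FPKM with a median of 1.12 FPKM over 16 PHx libraries, and 0.845 and 0.701 FPKM in undamaged liver. The lower Hep-Org library fell inside the liver range, since 14 d replicate 1 was higher. The first 2 steps of serine synthesis were therefore high in organoids by far more than the last one.

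The exon-free stretches before the annotated starts of Phgdh and Psat1 are shown because these 2 genes carry the largest organoid difference. Both are RefSeq sequence of GRCm38.p6 on the minus strand, read 5′ to 3′, at chr3:98339991-98340219 for Phgdh and chr19:15925060-15925309 for Psat1, and no part is capitalised. The Psat1 stretch lies before 1 of its 2 RefSeq starts, at 15925059, and within the gene span given above. The stretch before the other start, at 15924622, is not shown.
Phgdh: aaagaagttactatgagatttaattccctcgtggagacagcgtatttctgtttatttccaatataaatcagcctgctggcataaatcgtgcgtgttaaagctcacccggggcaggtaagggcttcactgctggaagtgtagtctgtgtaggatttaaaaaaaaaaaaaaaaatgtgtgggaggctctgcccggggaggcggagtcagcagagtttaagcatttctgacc
Psat1: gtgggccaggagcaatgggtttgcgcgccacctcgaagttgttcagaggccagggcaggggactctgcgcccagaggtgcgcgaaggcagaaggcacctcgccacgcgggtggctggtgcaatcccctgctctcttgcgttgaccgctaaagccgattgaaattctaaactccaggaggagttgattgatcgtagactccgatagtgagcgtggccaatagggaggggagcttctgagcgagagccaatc
Promoters from 250 bases before to 50 after the start were found for 9 of the 10 genes, 10 promoters in all since Psat1 has 2 starts. A composite ATF4 motif, TGATGNAA on either strand, was in 1 of these 10 promoters and in 3.97% of 32851 promoters of the same length. The E-box CACGTG was in 0 of the 10 and in 7.15% of all.

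The serine hydroxymethyltransferases ran the other way. Shmt1, the cytosolic enzyme (ENSMUSG00000020534, chromosome 11, 60788104 to 60811718), was 6.19 and 4.01 FPKM in Hep-Org. After PHx it was 4.24 and 11.8 FPKM at 6 h, 8.83 and 9.84 FPKM at 12 h, 14.8 and 23.4 FPKM at 24 h, 15.1 and 17.0 FPKM at 48 h, and 27.4 and 19.2 FPKM at 72 h. Shmt1 was 38.5 and 17.3 FPKM at 7 d, 38.3 and 31.9 FPKM at 14 d and 40.3 and 26.8 FPKM at 21 d, and 40.7 and 16.2 FPKM in undamaged liver. The 2 Hep-Org libraries were below 17 of the 18 liver libraries, and 6 h replicate 1 lay between them.

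Shmt2, the mitochondrial enzyme (ENSMUSG00000025403, chromosome 10, 127517123 to 127522444), was 22.9 and 12.0 FPKM in Hep-Org. Its lowest, median and highest levels were 17.5, 33.8 and 59.1 FPKM over 16 PHx libraries, and it was 59.5 and 31.2 FPKM in undamaged liver. As for Shmt1, the only liver library below the higher Hep-Org library was 6 h replicate 1. The ratio of Shmt2 to Shmt1, which does not depend on how a library is scaled, was 3.70 and 3.01 in Hep-Org, and 0.85 to 4.14 with a median of 1.80 over 18 liver libraries, so the ranges overlapped.

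Mthfd1, the cytosolic enzyme that joins 3 folate reactions in a single protein (ENSMUSG00000021048, chromosome 12, 76255298 to 76319803), was 11.0 and 15.2 FPKM in Hep-Org. After PHx it was 4.58 and 12.4 FPKM at 6 h, 9.10 and 12.4 FPKM at 12 h, 18.2 and 23.6 FPKM at 24 h, 18.3 and 19.6 FPKM at 48 h, and 33.1 and 16.2 FPKM at 72 h. Mthfd1 was 33.2 and 22.8 FPKM at 7 d, 43.1 and 35.1 FPKM at 14 d and 55.7 and 36.7 FPKM at 21 d, and 51.0 and 22.5 FPKM in undamaged liver. Hep-Org thus lay near the top of the 6 and 12 h values, with 1 library within and 1 above their range, and both were below every other liver library.

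Mthfd2, Mthfd1l and Aldh1l2 were low in liver and higher in organoids. Mthfd2, a mitochondrial dehydrogenase and cyclohydrolase known for its activity in embryos and tumours (ENSMUSG00000005667, chromosome 6, 83305691 to 83325908), was 5.85 and 2.65 FPKM in Hep-Org. It was 0.234 to 1.45 FPKM with a median of 0.743 FPKM over 16 PHx libraries, and 0.35 and 1.92 FPKM in undamaged liver. Mthfd1l, which releases formate in mitochondria (ENSMUSG00000040675, chromosome 10, 3973118 to 4167081), was 5.31 and 2.71 FPKM in Hep-Org, 0.0442 to 0.905 FPKM after PHx, and 0.088 and 0.166 FPKM in undamaged liver. Neither gene overlapped between Hep-Org and liver. Both are marked in GENCODE as lying in a locus that overlaps another gene, and the strand setting of the counting is not given in the sources used here, so reads of the overlapping gene may be included.

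Aldh1l2, which oxidises formyl folate in mitochondria (ENSMUSG00000020256, chromosome 10, 83487450 to 83534140), was 2.99 and 0.40 FPKM in Hep-Org, from 980 and 153 reads. It was at most 0.133 FPKM in any liver library, with 0 reads in 5 of them, where 3 reads would give 0.0128 to 0.0281 FPKM. The Hep-Org libraries differed by a factor of 7.46, the widest disagreement among the 10 genes. With a level of at least 1 FPKM in 1 library, Aldh1l2 did not pass the low-value filter and entered no test.

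Ratios between genes within a library do not depend on the scaling. Among the folate enzyme ratios examined, only Shmt2 to Mthfd2 kept organoids apart from liver, and Shmt2 to Shmt1 overlapped as given above. The ratio of Shmt2 to Mthfd2 was 3.92 and 4.54 in Hep-Org and 16.2 to 227 over 18 liver libraries. The ratio of Mthfd1 to Mthfd2 was 1.88 and 5.71 in Hep-Org and 5.18 to 238 with a median of 32.6 in liver, ranges that overlapped at 1 end. Phgdh was 4.62 and 3.13 times Shmt2 in Hep-Org and at most 0.0388 times Shmt2 in liver.

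Asns, which makes asparagine from aspartate (ENSMUSG00000029752, chromosome 6, 7675169 to 7693254), was 18.3 and 5.39 FPKM in Hep-Org and varied widely in liver. It was 2.48 and 1.98 FPKM at 6 h, 3.80 and 1.95 FPKM at 12 h, 2.97 and 2.48 FPKM at 24 h, 1.74 and 4.85 FPKM at 48 h, and 0.577 and 0.763 FPKM at 72 h. Asns was 0.0179 and 2.36 FPKM at 7 d, 10.8 and 0.608 FPKM at 14 d and 2.92 and 2.55 FPKM at 21 d, and 0.428 and 0.437 FPKM in undamaged liver. The library of 14 d replicate 1 exceeded the lower Hep-Org library, and 15 of 16 PHx libraries exceeded both undamaged ones.

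The single ATF4 motif among the promoters was that of Asns. It is shown in capitals within 30 bases of RefSeq sequence on the minus strand, GRCm38.p6 chr6:7693214-7693243, and begins 23 bases before the RefSeq start.
Asns: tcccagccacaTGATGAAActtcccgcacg
A match describes letters only and is not shown to be bound here.

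Set against the mean of the 8 PHx times, 4 of the 9 genes that passed the filter were counted as higher in Hep-Org, meaning no overlap between libraries and a difference of at least 1 on the log2(FPKM + 1) scale, and 0 as lower. Of all 13162 genes tested, 9.06% were counted higher and 11.6% lower by the same rule. The genes were chosen on this contrast, so nothing is read from the count. The filter asked for at least 1 FPKM in 2 libraries, and Phgdh and Mthfd1l passed only because of Hep-Org, with 1 and 0 liver libraries at that level. The log2 differences were 5.71 (SE 0.284) for Phgdh, 4.46 (SE 0.266) for Psat1, 1.74 (SE 0.273) for Mthfd1l and 1.52 (SE 0.304) for Mthfd2. These values understate the change of low genes because of the added 1. Asns at 1.76 (SE 0.637) and Psph at 0.99 (SE 0.256) overlapped the liver range, as did Shmt1 at -1.72 (SE 0.415), Shmt2 at -1.06 (SE 0.316) and Mthfd1 at -0.68 (SE 0.393). The organoid libraries decided several of these values: without Hep-Org replicate 1 Asns was at 0.96, Psph at 0.57 and Shmt2 at -1.50, and without Hep-Org replicate 2 they were at 2.55, 1.40 and -0.62. Leaving out any library kept Phgdh at 4.98 to 6.44 and Psat1 at 4.25 to 4.67.

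**Figure D2:**
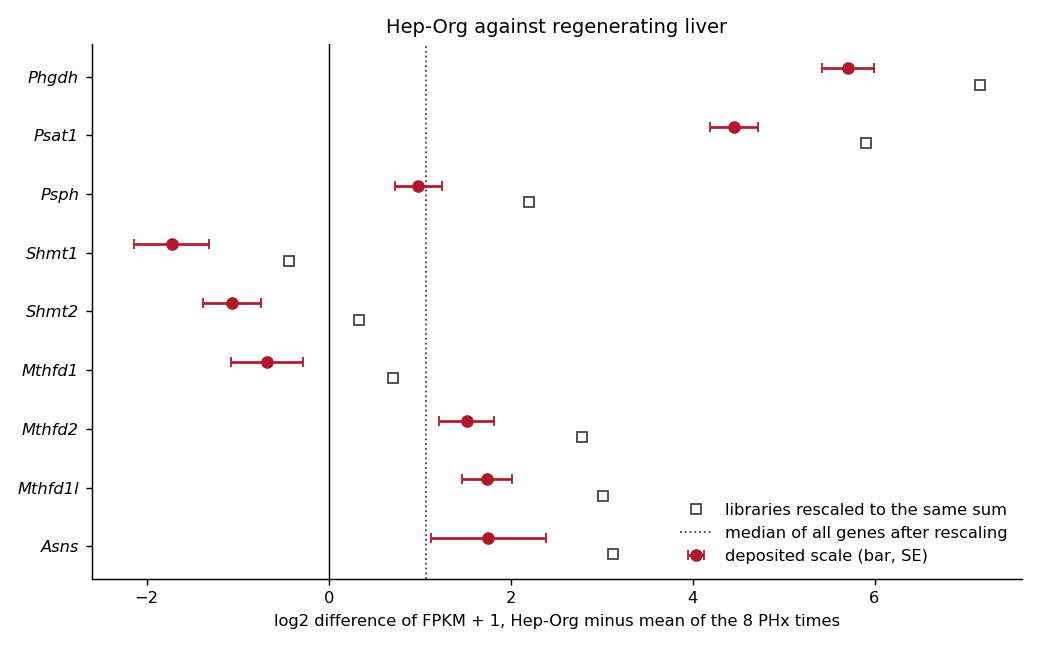
Log2 difference of FPKM + 1 between Hep-Org and the mean of the 8 PHx times for the 9 genes fitted, with filled circles and SE bars for the deposited scale and open squares after rescaling libraries to the same FPKM sum; the dotted line is the median of all genes after rescaling. Phgdh at 5.71 and Psat1 at 4.46 lie far to the right, and Shmt2 and Mthfd1 cross 0 on rescaling while staying left of the dotted line.

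Against undamaged liver all 9 genes were counted, 6 higher and 3 lower in Hep-Org, where 12.1% and 17.2% of all genes were. The log2 differences were 5.86 for Phgdh, 4.96 for Psat1, 2.95 for Asns, 2.10 for Mthfd1l, 1.33 for Mthfd2 and 1.32 for Psph, and -2.16 for Shmt1, -1.33 for Mthfd1 and -1.32 for Shmt2. Without undamaged replicate 1 Mthfd1 was at -0.75, Shmt2 at -0.87 and Mthfd2 at 0.77, and without Hep-Org replicate 1 Mthfd2 was at 0.88. Against 6 to 12 h, 6 genes were counted higher and 0 lower, where 11.7% and 15.2% of all genes were. Against 24 to 72 h, 5 were counted higher and 2 lower, where 10.8% and 14.5% were. Against 7 to 21 d, 4 were counted higher and 3 lower, where 11.7% and 15.1% were. On the deposited scale the log2 differences of Shmt1, Shmt2 and Mthfd1 from 6 to 12 h were -0.63, -0.65 and 0.46.

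The direction of Shmt2 and Mthfd1 depends on the library scale. The FPKM of a library summed to 184765 and 167676 in Hep-Org and to 326835 to 988797 in liver. Rescaling all libraries to the same sum moved the median of all genes to 1.08, against -0.04 as deposited, for Hep-Org versus regenerating liver. Shmt1 was then at -0.44, Shmt2 at 0.34 and Mthfd1 at 0.71. Relative to the shifted median they were at -1.51, -0.74 and -0.37, against -1.68, -1.02 and -0.64 relative to the median as deposited. By window, the rescaled differences from 6 to 12 h, 24 to 72 h and 7 to 21 d were 0.93, -0.43 and -1.36 for Shmt1, 1.04, 0.33 and -0.12 for Shmt2, and 2.12, 0.75 and -0.28 for Mthfd1, where the median of all genes was 1.23, 1.11 and 0.94. Which window the organoids lay nearest to therefore also depended on the scale. Phgdh and Psat1 were at 7.16 and 5.90 after rescaling.

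Across the times after PHx, Shmt1 and Mthfd1 were low in the first hours and higher from 24 h on. At 6 to 12 h Shmt1 was 4.24, 11.8, 8.83 and 9.84 FPKM, against a lowest, median and highest of 17.3, 35.1 and 40.3 FPKM over 6 libraries at 7 to 21 d. At 6 to 12 h Mthfd1 was 4.58, 12.4, 9.10 and 12.4 FPKM, against 22.8, 35.9 and 55.7 FPKM at 7 to 21 d. The groups did not overlap for either gene. Shmt1 was lower at 6 to 12 h by 1.80 on the log2 scale (SE 0.339, limma adjusted p = 0.0021) and Mthfd1 by 1.90 (SE 0.321, limma adjusted p = 0.00109). Calls needed a log2 difference of at least 1 and an adjusted p under 0.05, and these 2 of 9 genes were called lower and 0 higher, where 13.4% of all genes were called, 6.69% lower and 6.75% higher. After rescaling, 419 of all genes were called higher and 1834 lower, against 888 and 881 as deposited, the median of all genes moved to -0.28, and Shmt1 and Mthfd1 were at -2.01 and -2.12 relative to it.

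Both calls held in all 28 alternatives, with log2 differences of -2.29 to -1.42 for Shmt1 and -2.40 to -1.53 for Mthfd1. The median of all genes was 0.02 in this comparison. Shmt2 was 17.5, 29.7, 31.2 and 30.8 FPKM at 6 to 12 h, against 28.1, 44.4 and 59.1 FPKM as lowest, median and highest at 7 to 21 d, and was not called at -0.65 (SE 0.258, limma adjusted p = 0.0746). Psat1, Psph, Mthfd2 and Asns differed by -0.18 to 0.31 with limma adjusted p of 0.304 to 0.839. Phgdh differed by 0.27 and Mthfd1l by -0.02, given without a test since both passed the filter only through Hep-Org.

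**Figure D3:**
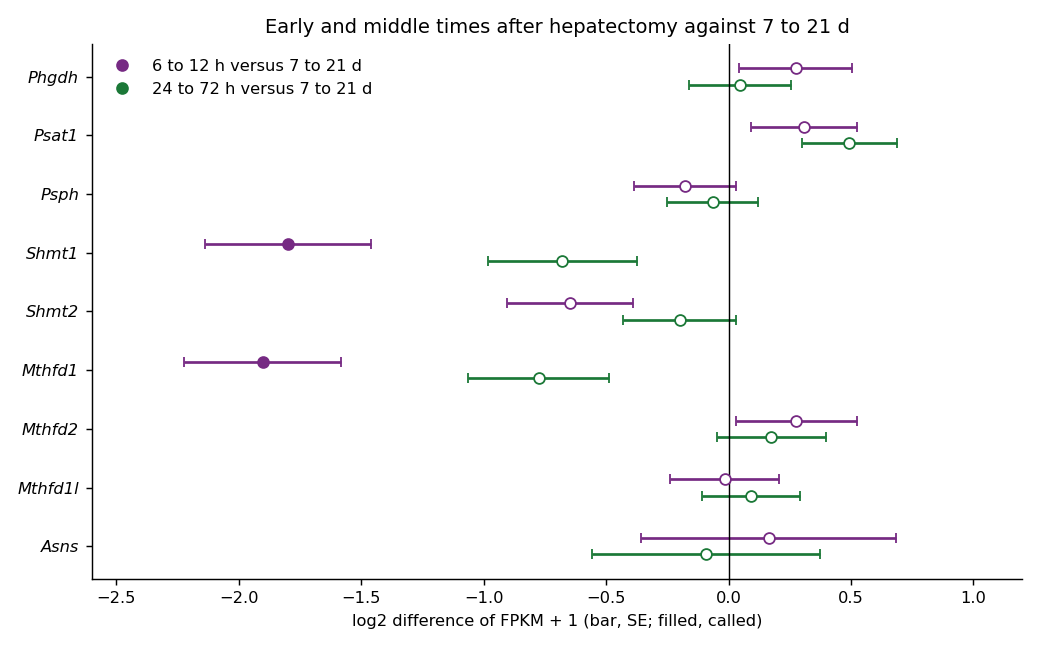
Log2 difference of FPKM + 1 with SE bars for the 9 genes fitted, in 6 to 12 h (purple) and 24 to 72 h (green) against 7 to 21 d; filled points are called. Shmt1 at -1.80 and Mthfd1 at -1.90 are the filled points, and no gene is filled for 24 to 72 h. Phgdh and Mthfd1l are shown as differences without a test.

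The libraries of 6 to 12 h also differed from those of 7 to 21 d in other ways. Mitochondrial transcripts took 12.6 to 40.7% of reads at 6 to 12 h and 4.13 to 12.8% at 7 to 21 d. The summed level of 5 neutrophil markers was 54.6 to 816 FPKM at 6 to 12 h and 3.03 to 188 FPKM at 7 to 21 d, and that of 5 erythroid markers 136 to 7089 FPKM and 12.4 to 168 FPKM. The 7 Kupffer cell markers summed to 60.7 to 115 FPKM at 6 to 12 h and 134 to 742 FPKM at 7 to 21 d, while the 10 hepatocyte markers summed to 26434 to 44676 FPKM and 26475 to 84215 FPKM. Their part in the lower levels of Shmt1 and Mthfd1 at 6 to 12 h was not tested.

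In the window of 24 to 72 h, which holds the known wave of hepatocyte division, Shmt1 was 14.8 to 27.4 FPKM with a median of 18.1 FPKM and Mthfd1 16.2 to 33.1 FPKM with a median of 18.9 FPKM, between the early and the late levels. The sum of 10 proliferation genes was 14.9 to 83.3 FPKM there, 7.71 to 14.5 FPKM at 6 to 12 h and 10.6 to 58.3 FPKM at 7 to 21 d. Among them Mki67 was 0.455 and 0.129 FPKM at 24 h, 8.09 and 0.616 FPKM at 48 h and 7.05 and 5.84 FPKM at 72 h. At 7 to 21 d it was 4.91 FPKM in 7 d replicate 2 and at most 0.552 FPKM otherwise. Of the 10 proliferation genes 0 were called between these windows, so the comparison says little about dividing against resting cells. None of the 9 genes was called between 24 to 72 h and 7 to 21 d, where limma called 0.137% of all genes and 1201 genes had an unadjusted p under 0.05. The log2 difference was -0.68 for Shmt1 (limma adjusted p = 0.538), -0.78 for Mthfd1 (limma adjusted p = 0.439) and 0.49 for Psat1 (limma adjusted p = 0.465). Mthfd2 was 0.477 to 1.45 FPKM in this window and 0.234 to 0.807 FPKM at 7 to 21 d, a difference of 0.18 (SE 0.222).

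The test over all 8 PHx times called Mthfd1 alone among the 9 genes, where 9.51% of all genes were called. Its fitted means spanned 2.42 on the log2 scale, lowest at 6 h and highest at 21 d (limma moderated F test, adjusted p = 0.0497). This call sat at the threshold and was lost in 19 of 27 alternatives, 17 of the 20 that leave out 1 library among them, with adjusted p of 0.0255 to 0.150. Shmt1 spanned 2.13 (adjusted p = 0.0858) and Shmt2 1.09 (adjusted p = 0.352).

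**Figure D4:**
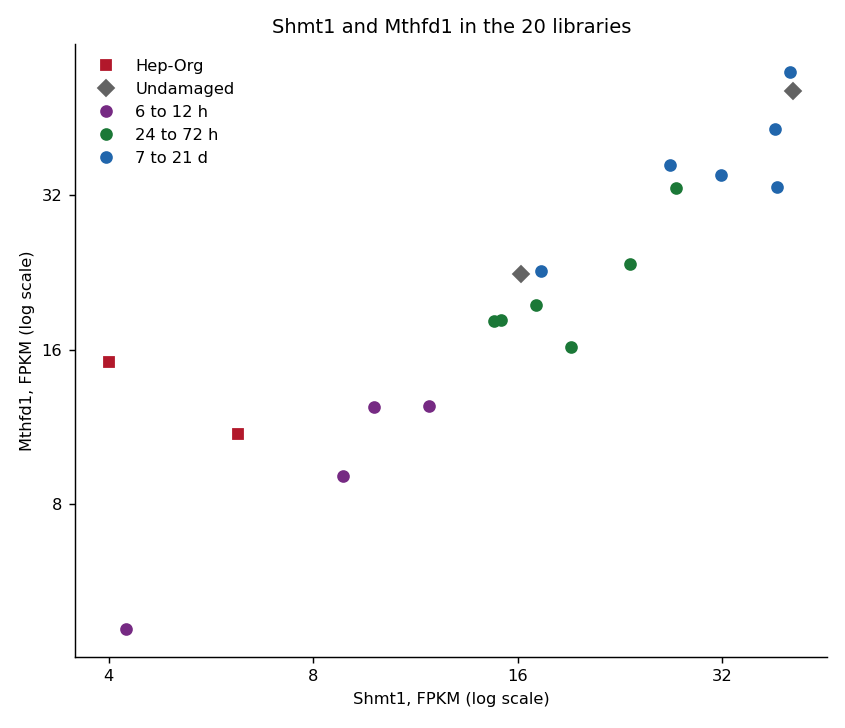
Shmt1 against Mthfd1 in FPKM on log axes, 1 point per library, for Hep-Org, undamaged liver and the 3 PHx windows. Liver libraries run along a diagonal with 6 to 12 h at the low end, and Hep-Org sits at 4.01 to 6.19 FPKM of Shmt1 and 11.0 to 15.2 FPKM of Mthfd1.

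Over the 18 liver libraries Shmt1 and Mthfd1 followed each other, with Pearson's r of 0.97 and Spearman's rho of 0.94 on the log2(FPKM + 1) scale, given as a description of libraries that share time and scale. Genes outside the lists used here came close to these values. Mthfd1 was followed by Ido2 at r = 0.97 (rho 0.96), Car5a at r = 0.96 (rho 0.98) and Acsm5 at r = 0.96 (rho 0.86). Shmt1 was followed by Polr3g and Bphl at r = 0.96 and Pecr at r = 0.95. The likeness of Shmt1 and Mthfd1 was therefore not particular to this pair. Shmt2 followed Mthfd1 at r = 0.78 and Shmt1 at r = 0.74. Phgdh and Psat1, both near the detection limit in liver, reached r = 0.40. The genes most like Phgdh among 9216 were Wtip at r = 0.75, Fabp4, a fatty acid binding protein, at r = 0.75 and Clec3b at r = 0.74. Those most like Asns were Fam76a at r = 0.74, Ap2m1, a clathrin adaptor subunit, at r = 0.74 and Rabif at r = 0.72. The rho was 0.55 to 0.68 for the 3 genes named for Phgdh and 0.60 to 0.81 for those named for Asns. All were picked as the highest of 9216 genes over 18 libraries, and Phgdh had at most 71 reads in any liver library. Whether such values exceed what a search of this size gives by chance was not tested.

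Against undamaged liver, Mthfd1 was called lower at 6 to 12 h, and it was the only call among the 9 genes, where 9.28% of all genes were called and 6.02% were called lower. Mthfd1 was 4.58, 12.4, 9.10 and 12.4 FPKM at 6 to 12 h and 51.0 and 22.5 FPKM in undamaged liver, and fell by 1.78 on the log2 scale (SE 0.448, limma adjusted p = 0.024). The call was lost without undamaged replicate 1 (-1.21, adjusted p = 0.195), without 6 h replicate 1 (-1.32, adjusted p = 0.0796), without 12 h replicate 1 (-1.63, adjusted p = 0.0687) and after rescaling (-1.60, adjusted p = 0.116), and the range over 27 alternatives was 0.00733 to 0.195. Shmt1 was not called at -1.53 (SE 0.474, limma adjusted p = 0.0527). It was called without undamaged replicate 2 (-2.17, adjusted p = 0.032), without 6 h replicate 2 (-1.81, adjusted p = 0.0175) and without either 7 d library (-1.60, adjusted p = 0.0392 and 0.0393), and its range over 27 alternatives was 0.0175 to 0.376.

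The undamaged libraries disagreed with each other for these enzymes. Shmt1, Shmt2 and Mthfd1 were 40.7, 59.5 and 51.0 FPKM in replicate 1 and 16.2, 31.2 and 22.5 FPKM in replicate 2. The acute phase gene Saa1 was at 19.9 FPKM in replicate 1 and 20927 FPKM in replicate 2. Of the 8 PHx times, 1 also had less Shmt1 in the library with more Saa1, namely 7 d, and at the other 7 times the library with more Saa1 had more Shmt1. Each PHx pair also sets the libraries read as the first submission against those read as the second, and any link between Saa1 and Shmt1 was not tested. The undamaged libraries also differed in FPKM sum, 469342 in replicate 1 and 988797 in replicate 2. From replicate 1 to 2 the Kupffer cell markers summed to 24.0 and 570 FPKM, and the endothelial markers to 16.3 and 121 FPKM. Hepatocyte markers summed to 73938 and 84069 FPKM, and erythroid markers to 39.1 and 32.1 FPKM. The part of these differences in the enzyme levels was not tested.

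Asns had 4 libraries at 6 to 12 h of 1.95 to 3.80 FPKM, all above the undamaged 0.428 and 0.437 FPKM, as 15.2% of all genes had, but was not called at 1.35 (SE 0.726, limma adjusted p = 0.245). At 24 to 72 h against undamaged liver 0 of 9 genes were called, where 0.6% of all were and 2085 genes had an unadjusted p under 0.05. At 7 to 21 d against undamaged liver 0 of 9 were called, where 0.0912% of all were and 1398 genes had an unadjusted p under 0.05.

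Around the 10 genes, the pathways that use serine and folate held genes lower and genes higher at 6 to 12 h than at 7 to 21 d. That window is later, so these are differences in level and not changes from the liver before surgery. Of 17 measured genes of serine and glycine use and breakdown, 8 were lower and 2 higher at 6 to 12 h, with a list median of -1.06 against 0.02 for all genes. Over all genes 6.69% were lower and 6.75% higher, and the list counts that follow stand beside these shares. Gcsh, a subunit of the glycine cleavage system, was 12.9 to 21.2 FPKM at 6 to 12 h and 40.6 to 70.4 FPKM at 7 to 21 d, lower by 1.56 (SE 0.206). Sardh, which oxidises sarcosine, was lower by 1.74 (SE 0.319). Sdsl, a serine dehydratase relative, was higher by 3.61 (SE 0.33), at 30.4 to 110 FPKM against 2.95 to 8.89 FPKM. Of 17 other folate genes 3 were lower and 1 higher, and the folate carrier Slc46a1 was lower by 1.56 (SE 0.254).

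Of 17 purine and thymidylate synthesis genes 4 were lower and 0 higher at 6 to 12 h than at 7 to 21 d, among them Prps2 at -1.25 (SE 0.142) and thymidine kinase Tk1 at -1.42 (SE 0.172). Of 12 methionine cycle genes 2 were higher and 2 lower, with Nnmt, a methyl-consuming enzyme, at 387 to 1298 FPKM against 52.5 to 173 FPKM at 7 to 21 d and a difference of 2.97 (SE 0.541). Of 22 ATF4 and amino acid stress genes 8 were higher and 0 lower, with a list median of 0.71. Ddit3, a stress transcription factor, was 13.1 to 17.3 FPKM at 6 to 12 h and 1.58 to 3.77 FPKM at 7 to 21 d, higher by 2.01 (SE 0.376). Slc38a2, an amino acid transporter, was higher by 1.23 (SE 0.247). Psat1 and Asns were not called in the same comparison, at 0.31 and 0.16, and Phgdh, at 0.27, carries no test. Of 14 tRNA synthetases 1 was lower and 0 higher, Dars at -1.04 (SE 0.201). Of 10 glutamine, aspartate and asparagine genes 1 was higher and 1 lower, Slc1a5 at 1.23 (SE 0.387) and Gls2 at -1.44 (SE 0.395). The single calls of the tRNA synthetases, at 7.14% of the list, and of the folate gene that was higher, at 5.88%, were near the shares of all genes. Every limma adjusted p of the genes named in these lists was at most 0.0292.

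Against undamaged liver the same lists held fewer calls at 6 to 12 h, where 3.27% of all genes were called higher and 6.02% lower. Serine and glycine use had 3 genes lower and 1 higher, the other folate genes 1 lower and 0 higher, the methionine cycle 1 lower and 1 higher, and the ATF4 and stress genes 0 lower and 1 higher. The purine and thymidylate genes and the tRNA synthetases had 0 calls, and the glutamine, aspartate and asparagine genes 1 higher and 0 lower.

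In Hep-Org against the 8 PHx times, many genes of serine and glycine use were low. That list mixes enzymes that break down serine or glycine with others, and Agxt, named below, makes glycine. Of 17 genes of serine and glycine use 10 were counted lower and 0 higher, with a list median of -2.32 against -0.04 for all genes, of which 11.6% were counted lower and 9.06% higher. Of the 10 hepatocyte markers 9 were counted lower and 0 higher, with a median of -6.82. Low levels in Hep-Org were therefore not particular to the lists of this paragraph. Gnmt, the glycine methyltransferase, was 0.733 and 0.911 FPKM in Hep-Org against 239 to 1137 FPKM after PHx, and Agxt, which makes glycine in peroxisomes, was at 0 and 0.0539 FPKM against 34.7 to 202 FPKM. Of 12 methionine cycle genes 7 were counted lower and 0 higher, among them the liver enzyme Mat1a at 1.12 and 2.73 FPKM against 285 to 2263 FPKM. Of 10 glutamine and asparagine genes 6 were counted lower and 1 higher, with the asparaginase Aspg at 0.396 and 1.61 FPKM against 23.5 to 119 FPKM.

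Some other lists held genes counted higher in Hep-Org. Of 17 purine and thymidylate genes 5 were counted higher and 0 lower, such as Gart, a folate-using purine enzyme, at 7.20 and 9.53 FPKM in Hep-Org against 1.62 to 5.29 FPKM after PHx. Of 22 ATF4 and stress genes 8 were counted higher and 1 lower, such as Sesn2 at 9.83 and 12.6 FPKM against 0.607 to 2.17 FPKM, and the cystine carrier Slc7a11 at 1.92 and 10.3 FPKM against 0 to 0.453 FPKM. Slc7a11 reached the 1 FPKM of the filter in both Hep-Org libraries and in no PHx library. Genes can enter these counts through Hep-Org alone, so the counts are a description. Of 14 tRNA synthetases 4 were counted higher and 0 lower, such as Gars at 27.9 and 35.4 FPKM against 8.23 to 16.1 FPKM. Of 17 other folate genes 1 was counted higher and 3 lower, among them Aldh1l1, the cytosolic counterpart of Aldh1l2, at 8.46 and 8.88 FPKM against 58.8 to 315 FPKM. Aldh1l2 and Aldh1l1 thus lay on opposite sides of liver in the organoids.

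**Figure D5:**
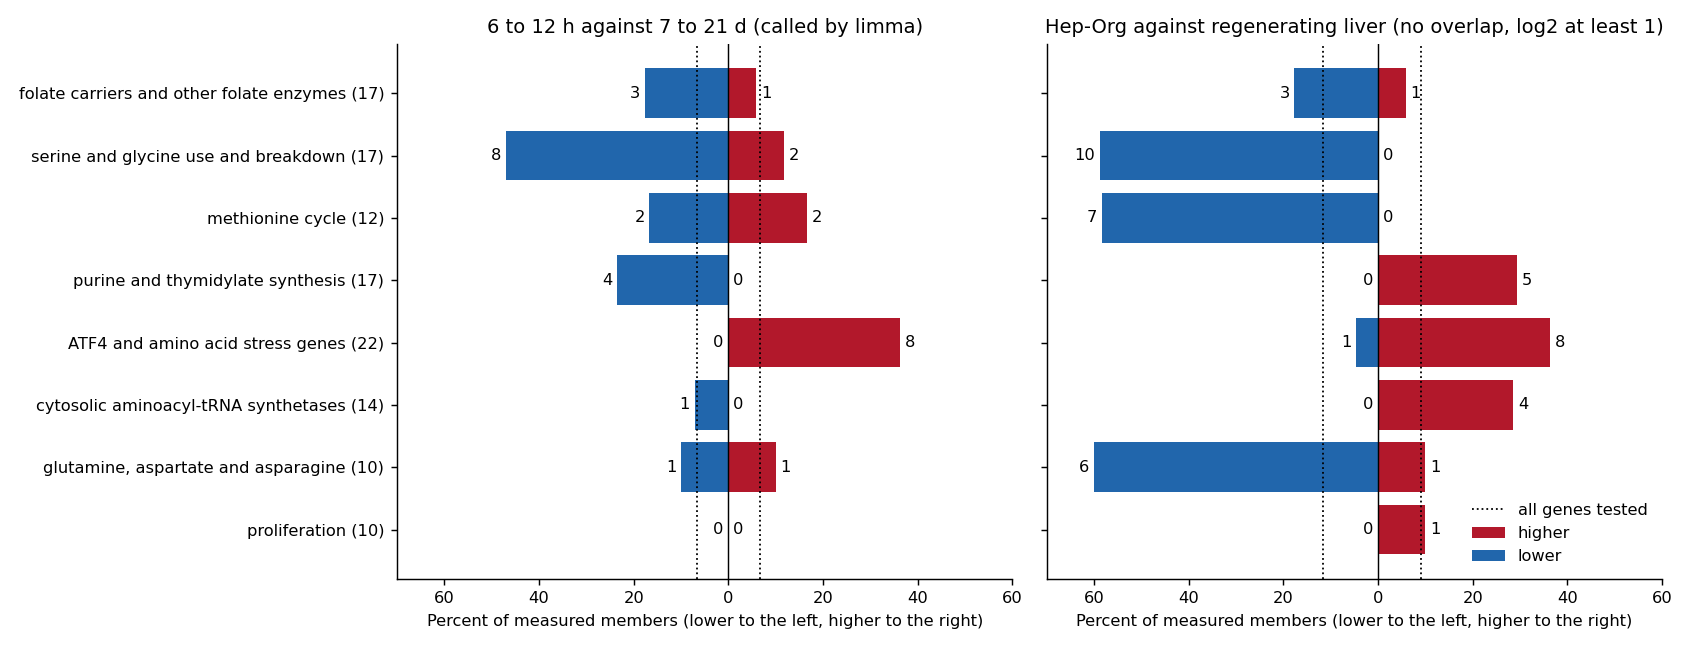
Percent of the measured genes of each list that were higher (red, right) or lower (blue, left), with counts at the bar ends: called by limma at 6 to 12 h against 7 to 21 d on the left panel, and counted by no overlap and a log2 difference of at least 1 for Hep-Org against the PHx times on the right panel. Dotted lines mark the same percent over all 13162 genes; serine and glycine use has 8 genes lower at 6 to 12 h and 10 lower in Hep-Org.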

How the data were processed

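The 20 libraries came as 1 table of FPKM values that the authors deposited. The submitters' processing notes name HISAT2 2.0.5 and the build mm10. How reads were counted, with which annotation and strand setting, and how libraries were scaled is not given in the sources used here. Identifiers were named with GENCODE M21, which matched 54495 of 54532. 0 columns of values were left unused and 0 pairs of libraries were identical. The header of undamaged replicate 1 differs by a letter from its library name and was assigned as the only column left. Whole reads were recovered from the steps of low FPKM values: 97.9 to 98.7% of values up to 20 reads were whole within 0.05.

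limma 3.58.1 in R 4.3.3 was fitted to log2(FPKM + 1) of 13162 genes with at least 1 FPKM in 2 libraries. The model held 10 group means and a submission term, with trended, robust variances, and 9 residual degrees of freedom remained. The second submission was read as the 8 libraries whose growth protocol does not mention Matrigel, all PHx replicate 2. The labels state no submission. P-values were adjusted by Benjamini-Hochberg over all 13162 genes, and calls also needed a log2 difference, or a span of fitted means, of at least 1. The code was tested on simulated data. Contrasts with Hep-Org had no test. Figures were drawn in matplotlib 3.10.9.

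The members and the 16 other lists were chosen with earlier results of these data known. From each list up to 3 genes were named, by the largest moderated t among called genes or the largest difference among counted ones. For Phgdh, Asns, Shmt1 and Mthfd1, the 3 genes of highest r other than the members were named. Some genes that this rule picks are not reported here. Saa1, Xist, Ddx3y, Hnf4a and Spp1 were named as marks of the libraries. 178 of 179 list entries were found. Alternatives were rescaling to the same sum, median-ratio scaling, a pseudocount of 0.1, no low-value filter, models without the submission term and with a replicate block, voom on recovered reads, other time windows, and leaving out each library. Counting limits use 3 reads and cover counting error only.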

Additional observations from a re-analysis of the deposited data

Results flagged for a closer look

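Within the windows of 6 to 12 h, 24 to 72 h and 7 to 21 d, each of the 10 genes was searched for a library far from the others, 30 sets in all, and 3 stood apart by Dixon's gap at the 95% level, which chance reaches in about 1 of 20 sets. Psat1 was 1.24 FPKM in 14 d replicate 1, against 0.127 to 0.447 FPKM in the other 5 libraries of 7 to 21 d. Asns was 10.8 FPKM in the same library, against 0.0179 to 2.92 FPKM in the other 5. Shmt2 was 17.5 FPKM in 6 h replicate 1, against 29.7 to 31.2 FPKM in the other 3 libraries of 6 to 12 h.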

How the results depend on the processing

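Shmt1 and Mthfd1 were called lower at 6 to 12 h than at 7 to 21 d under all 28 alternatives, and 2 genes were called whichever library was left out. Rescaling gave 2 called genes over the PHx time course, a pseudocount of 0.1 gave 0 and no filter 0, against 1; leaving out a library gave 0 to 1. All-gene counts were 718 rescaled and 543 unfiltered, against 1252, and 750 to 1519 without a library. For 6 to 12 h versus 7 to 21 d they were 2723 with the pseudocount of 0.1 and 2860 by voom, against 1769, and 1590 to 1912 without a library.

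For 24 to 72 h versus 7 to 21 d, 18 genes were called in all; the count was 32 rescaled, 8 with the pseudocount of 0.1, 8 unfiltered, 5 by voom, 5 for 24 h versus 14 to 21 d and 1 for 48 to 72 h versus 7 d, the times that share Xist, and 5 to 33 without a library. Rescaled, 5 were higher and 27 lower, against 5 and 13. For 6 to 12 h versus undamaged, 0 of the 9 genes were called rescaled, 0 unfiltered and 2 by voom, against 1, and 0 to 2 without a library; all-gene counts were 383 rescaled (148 higher, 235 lower) and 637 unfiltered, against 1222 (430 higher, 792 lower), and 808 to 1525 without a library. For 24 to 72 h versus undamaged they were 37 rescaled (22 higher, 15 lower), 24 unfiltered and 33 by voom, against 79 (22 higher, 57 lower), and 29 to 126 without a library; 0 of the 9 genes were called. For 7 to 21 d versus undamaged they were 7 rescaled (7 higher, 0 lower), 2 with the pseudocount of 0.1, 5 unfiltered and 0 by voom, against 12 (7 higher, 5 lower), and 4 to 68 without a library; 0 of the 9 genes were called.

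Replicate differences correlated between times at -0.381 to 0.472 over 28 pairs of times, over 0.1 in 4. All PHx replicate 2 libraries are those read as the second submission, so a pairing by replicate number cannot be told apart from the submission. With a replicate block in place of the submission term, 2 genes were called for 6 to 12 h versus undamaged, and 146 of all genes for 24 to 72 h versus undamaged. With neither term these were 2 and 263, and 19 for 7 to 21 d versus undamaged. The block and its absence moved no other count of calls by over 1.5 times.

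Rescaling raised the genes counted in Hep-Org to 7070 of 13162 against the PHx times (2713 as deposited) and 8797 against undamaged liver (3861), since it moves the median of all genes. Against undamaged liver it turned Shmt2 to 0.55 and Mthfd1 to 0.53, where that median was 1.34. Without a library, 4 to 6 and 6 to 9 of the 9 genes were counted (6 against the PHx times without 6 h replicate 1, 14 d replicate 1 or either Hep-Org library, and 6 against undamaged liver without undamaged replicate 1), and 2691 to 3059 and 3843 to 4425 of all. Phgdh, Psat1, Mthfd2 and Mthfd1l kept a higher level in Hep-Org under every alternative. Unless stated, the cause of a moved count was not tested. At most 71 reads of Phgdh and 21 of Aldh1l2 per liver library limit any statement on their course after PHx.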
